A study of Homo sapiens with 9 samples.

Results

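The expression landscape of K562 cells transduced with wild-type calreticulin (CALR WT) was described from 3 of the 9 arrays of the series. The members were the arrays titled replicate 1, 2 and 3 of the WT group, and the other 6 arrays were 3 of the Del52 and 3 of the Ins5 form. K562 is an established human line from chronic myeloid leukaemia in blast crisis, with erythroid and megakaryocytic potential and the BCR-ABL1 fusion. Cells of every group were infected with retrovirus, selected with beads for the surface marker NGFR and lysed for total RNA. They carry their own CALR gene beside the transduced copy, and no untransduced or empty-vector group is among the 9 arrays. The labels do not say whether the replicates were separate transductions, so the standard deviations (SD) measure the spread between these 3 samples, which may be technical.

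K562 is a model of an early, foetal type of red cell precursor. Erythroid cells make haemoglobin from globin chains and heme, and the factors GATA1, TAL1, LMO2, LDB1 and KLF1 act together on globin, heme and membrane genes. The fusion kinase BCR-ABL1 joins the start of BCR to the end of ABL1 and drives RAS, PI3K and STAT5 signalling, which sustains growth without added cytokines. Calreticulin is a chaperone of the endoplasmic reticulum (ER) that binds glycoproteins and calcium.

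All values are the authors' RMA signals on the log2 scale. Each of 18239 genes is represented by 1 probe set. A rank is a rank of signal, which depends on the probes as well as on the RNA, and it is not a rank of transcript number. Background was read from 23 antigenomic controls, probe sets with no target in the genome that differ in their number of G and C bases. The highest control read 6.21, 6.50 and 6.41 on the 3 arrays and the second-highest 4.10, 4.29 and 4.14. These were the sets with 25 and 24 G and C bases, and the set with 14, the median control, averaged 2.00. A gene above the highest control on all 3 arrays is called above all controls here. This held for 4109 of 18239 genes (22.5%), the share to set beside that of each list below. With the mean of all probe sets per gene, given below as a second reading, 2438 of 18239 genes were above all controls. On all 3 arrays 8960 genes (49.1%) were above the second-highest control. Above the 95th percentile of the olfactory receptor genes, which are silent in most tissues, were 8968 (49.2%). The threshold crosses a continuous slope. OCRL, DHX30 and COMMD4 lay just inside it, by 0.00022, 0.00098 and 0.00138 on the array where each was nearest to the control. CDR2, ELF2 and CERS5 lay just outside, with differences from the control of -0.00155, -0.00183 and -0.00187 there.

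The 3 arrays were alike in their centre, with gene medians of 4.29, 4.31 and 4.28. Over genes, which are not independent replicates, Pearson's r was 0.991 for replicates 1 and 2, 0.993 for 1 and 3, and 0.974 for 2 and 3. The 5-prime control for 18S ribosomal RNA read 9.30, 9.70 and 10.87, and the 3-prime minus 5-prime difference for actin was 1.39, 1.08 and 1.31. Replicate 3 was highest in the first measure and replicate 2 lowest in the second. Their part in the results was not tested. Replicates 2 and 3 of WT also stood apart along an axis that the other groups share in reverse. The order of replicates 2 and 3 was opposite to WT for 14431 of 18239 genes in Del52 (79.1%) and for 14763 in Ins5 (80.9%). The labels do not say what a replicate number marks, and the cause was not tested. All SDs here contain this difference.

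**Figure D1:**
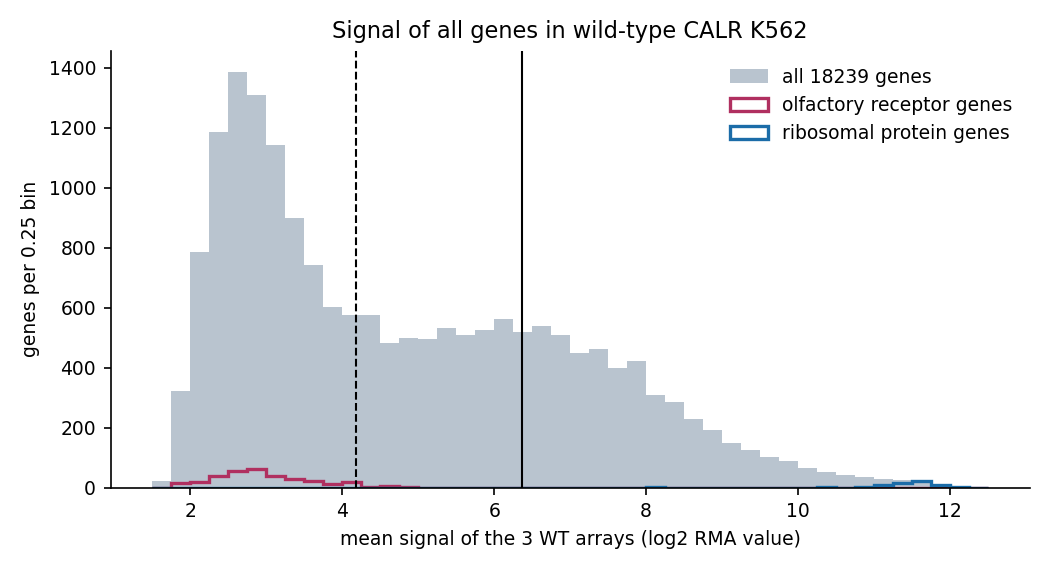
Number of genes (y axis) by mean log2 signal of the 3 WT arrays (x axis, bins of 0.25) for all 18239 genes, with olfactory receptor and ribosomal protein genes outlined. The solid line is the highest antigenomic control (mean 6.37) and the dashed line the second-highest (4.17). Most olfactory receptor genes lie left of the dashed line, and most ribosomal protein genes lie near the right end.

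The strongest signals belonged to the translation machinery. EEF1A1, which delivers aminoacyl-tRNA to the ribosome, ranked first at 12.12, 12.12 and 12.16. Of the first 30 genes, 24 encode proteins of the cytosolic ribosome, from RPS2 (12.03 ± 0.01, SD, n = 3, as in all such values here) to RPL14 (11.66 ± 0.09). The median SD over the 75 genes of the family was 0.05, against 0.11 over all genes and 0.17 over the highest of 10 equal groups of the ranking. These signals lie close to the highest values of the arrays, and whether the scale is compressed there was not tested. Of the first 100 genes, 59 were in this family. Besides ribosomal proteins and EEF1A1, the first 30 held HBG1, FTL, NPM1, TPT1 and DCAF6. NPM1 is a nucleolar chaperone of ribosome assembly (11.73 ± 0.06), and TPT1 encodes a translationally controlled tumour protein (11.71 ± 0.02).

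Not every ribosomal gene was bright. Above all controls were 72 of 75 (96%, against 22.5% of all genes), and the remaining ones were RPL10L (3.69), RPL27A (3.11 ± 0.27) and RPL3L (2.71 ± 0.08). RPL10L and RPL3L are known as relatives restricted to testis and to muscle, whereas RPL27A is a general subunit. Of translation factors, 46 of 56 were above all controls (82.1%, against 22.5% of all genes). After EEF1A1 they were led by EIF1, which selects the start codon (11.14 ± 0.40), and EIF4A1, the helicase of cap-dependent initiation (11.00 ± 0.38). Both spread more than the ribosomal proteins, and in opposite ways: EIF1 was lowest in replicate 2 (10.72, against 11.17 and 11.52), while EIF4A1 was highest there (11.37, against 11.01 and 10.62).

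Promoter sequences are shown for 5 genes on which the account turns: EEF1A1 and FTL from the head of the ranking, the erythroid genes ALAS2 and KLF1, and the cell's own CALR gene. Each window runs from 250 bases before to 50 after a RefSeq transcription start (GRCh38.p14). Capitals mark the letters searched, which were looked for on both strands. For the promoter element bound by the basal machinery the letters were TATAAA, and for the box bound by NF-Y they were CCAAT. For the site of GATA factors they were AGATAA, and for the box read by KLF1 and its relatives they were CCACCC. For the site of ETS factors they were CCGGAAG.
EEF1A1, chr6:73520983-73521282, minus strand: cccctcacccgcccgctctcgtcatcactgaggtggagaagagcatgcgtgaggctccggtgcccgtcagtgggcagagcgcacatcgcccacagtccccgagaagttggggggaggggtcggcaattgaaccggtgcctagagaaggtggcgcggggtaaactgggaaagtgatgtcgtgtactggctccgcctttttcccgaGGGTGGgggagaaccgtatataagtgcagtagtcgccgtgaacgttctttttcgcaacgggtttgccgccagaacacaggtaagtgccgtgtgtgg
FTL, chr19:48965059-48965358, plus strand: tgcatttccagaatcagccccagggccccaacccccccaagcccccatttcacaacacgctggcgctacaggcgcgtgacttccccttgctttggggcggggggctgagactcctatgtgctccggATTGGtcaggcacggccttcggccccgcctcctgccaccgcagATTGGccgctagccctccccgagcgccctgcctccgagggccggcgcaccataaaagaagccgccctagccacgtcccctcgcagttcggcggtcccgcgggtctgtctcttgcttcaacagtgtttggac
ALAS2, chrX:55030928-55031227, minus strand: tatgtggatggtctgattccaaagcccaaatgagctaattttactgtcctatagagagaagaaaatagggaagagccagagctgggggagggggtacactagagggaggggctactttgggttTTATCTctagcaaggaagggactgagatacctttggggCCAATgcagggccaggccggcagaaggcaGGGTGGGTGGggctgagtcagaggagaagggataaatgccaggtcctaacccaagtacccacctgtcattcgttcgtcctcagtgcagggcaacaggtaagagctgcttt
KLF1, chr19:12887152-12887451, minus strand: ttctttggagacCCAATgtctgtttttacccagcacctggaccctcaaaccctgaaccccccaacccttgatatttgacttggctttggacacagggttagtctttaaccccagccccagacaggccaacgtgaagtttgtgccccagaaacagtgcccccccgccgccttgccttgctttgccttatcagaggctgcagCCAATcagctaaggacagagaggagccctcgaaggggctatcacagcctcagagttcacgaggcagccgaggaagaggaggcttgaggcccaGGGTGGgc
CALR, chr19:12938359-12938658, plus strand: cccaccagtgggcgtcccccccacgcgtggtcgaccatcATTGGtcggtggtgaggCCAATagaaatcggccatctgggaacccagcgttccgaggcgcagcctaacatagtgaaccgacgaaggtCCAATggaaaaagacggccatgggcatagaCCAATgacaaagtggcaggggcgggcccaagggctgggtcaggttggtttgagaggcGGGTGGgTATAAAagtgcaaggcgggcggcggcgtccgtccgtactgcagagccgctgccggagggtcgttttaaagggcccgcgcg

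A match to any of these is named here by its element or factor. Only these exact letters counted, so a window without a match may still hold another form of the element or site. The shares below are limited in the same way. The ALAS2 window held 1 GATA match, 1 CCAAT match and 2 overlapping CACCC matches, with 3 CpG dinucleotides. KLF1 held 2 CCAAT matches and 1 CACCC match with 6 CpG. Its letters TTATCA, which read TGATAA on the other strand, were not among those searched. The windows of EEF1A1, FTL and CALR were richer in CpG, with 24, 23 and 26. FTL held 2 CCAAT matches and CALR 4, beside 1 TATA match in CALR. The EEF1A1 window holds TATATAA, which was not among the letters searched. EEF1A1 and CALR each held 1 CACCC match too. Among 20506 windows of 14492 measured genes, a CCAAT match was present in 34.7%, a CACCC match in 37.5%, a TATA match in 9.17%, an ETS match in 13% and a GATA match in 7.95%.

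Promoter letters differed along the ranking. Windows of genes above all controls had a median of 26 CpG, and those of genes below the second-highest control on every WT array had 11. Matches to the ETS letters were present in 21.6% of the former and 5.74% of the latter, and TATA matches in 6.37% and 13.1%. Ribosomal protein windows held ETS matches in 36.0%. With the ranking cut into 10 equal groups, the share with an ETS match went from 4.87% in the lowest group to 22.5% in the highest. The TATA share was 17.1% in the lowest, 5.15% in group 8 and 7.44% in the highest, so it did not fall throughout. The erythroid lists together held a GATA match in 15.9% of 138 windows, and the olfactory receptors in 32.6% of 279 windows. The latter windows are rich in A and T, with a median GC content of 37.7% against 62.7% over all windows. These shares describe the windows, and no match says that a factor binds there.

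The globin genes gave an embryonic and foetal pattern of signal. HBG1, a gamma-globin of the foetus, read 11.90, 11.78 and 12.06 and ranked 8. HBE1, the embryonic epsilon-globin, read 10.91, 11.10 and 11.18 (rank 88), and HBZ, the embryonic zeta-globin, 10.47, 10.56 and 10.53 (rank 171). All 9 values of these 3 genes were above every control. Gamma-globin has a near-identical copy, so the signal of HBG1 cannot be told apart from that of its partner by this probe set.

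Adult globins read lower and less evenly. HBB, the adult beta-globin, was at 4.86, 5.45 and 4.90, between the highest controls. HBD, the minor adult delta-globin, was at 6.93, 8.00 and 5.97, above all controls in replicates 1 and 2 and below the highest in replicate 3. HBQ1, a theta-globin, read 6.96, 6.49 and 7.53, and HBM, a mu-globin, 3.26 ± 0.11. AHSP, the chaperone of alpha-globin, read 3.87 ± 0.15, below the second-highest control. In all, 3 of 8 measured members of the list were above all controls (37.5%, against 22.5% of all genes). By the mean of the arrays 5 were, against 4849 of all 18239 genes. HBG2, HBA1 and HBA2 were not analysed here.

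The ordered neighbours of the beta-globin genes on the chromosome are olfactory receptor genes, whose products are known from the nose. Of 334 measured olfactory receptor genes, 1 was above all controls (0.299%, against 22.5% of all genes). This was OR5H1 (7.21 ± 0.06), whose other probe set averaged 2.22. With the mean of all probe sets 0 were above, against 2438 of all 18239 genes. Above the second-highest control were 13 (3.89%, against 49.1% of all genes). Among these 13, OR51B4 (5.97 ± 0.03), OR51B5 (5.49 ± 0.55) and OR51B2 (4.91 ± 0.13) are 3 of the 4 measured genes next to HBE1, and the remaining one, OR51B6, read 3.98. On the far side of HBB, OR51V1, OR52A1 and OR52A5 read 3.32, 3.20 and 3.10 on average, and the next gene outward, OR52E2, was above the second-highest control at 4.46, 4.53 and 4.52. These genes were singled out after their values were seen.

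**Figure D2:**
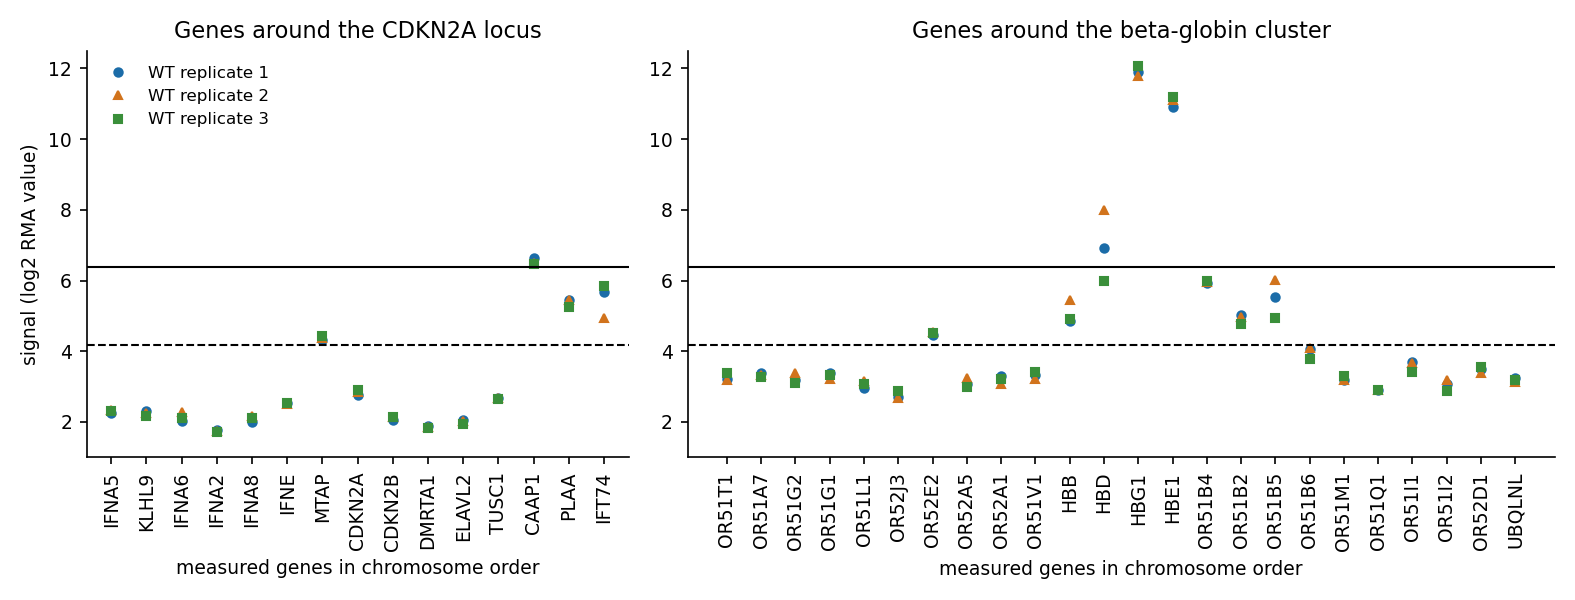
Log2 signal (y axis) of each WT array for measured genes in chromosome order (x axis) around the CDKN2A locus (left) and the beta-globin genes (right), with the mean highest (solid) and second-highest (dashed) control. MTAP is the only gene from IFNA5 to TUSC1 above the dashed line, and OR51B4, OR51B2 and OR51B5 lie above it next to HBE1.

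Heme and iron genes were mostly well above background. Of 28 measured members, 17 were above all controls (60.7%, against 22.5% of all genes) and 25 above the second-highest (89.3%, against 49.1%). Their median was 7.11 against 4.31 over all genes. With the mean of all probe sets 11 were above all controls, against 2438 of all 18239 genes. FTL, the light chain of the iron store ferritin, read 11.82, 11.80 and 11.87. TFRC, the transferrin receptor that takes up iron, read 10.84, 11.10 and 10.38, and UROD, a heme synthesis enzyme, 10.56, 10.25 and 10.90. ALAS2, the erythroid form of the first enzyme of heme synthesis, read 8.61, 8.41 and 9.52 and was highest in replicate 3. Its general counterpart ALAS1 read 5.53 ± 0.42, below the highest control on each array. FECH, which inserts iron into the ring, was at 8.19 ± 0.34, and SLC25A37, the mitochondrial iron importer, at 8.59 ± 0.18. HMOX1, which degrades heme, and CD163, a scavenger receptor of macrophages, were the lowest members (2.79 ± 0.11 and 2.72 ± 0.01).

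The red cell membrane was represented in part. Above all controls were 16 of 34 measured genes (47.1%, against 22.5% of all genes). They were led by RHAG, the Rh-associated glycoprotein (10.07 ± 0.21), CD47 (9.17 ± 0.09) and BSG (8.78 ± 0.26). With the mean of all probe sets 9 were above, against 2438 of all 18239 genes. SLC4A1, the anion exchanger band 3, was at 4.08, 4.38 and 4.01, and EPB42, which binds it, at 2.90 ± 0.13. Carbonic anhydrase CA2 (2.09 ± 0.40) and CD36 (2.07 ± 0.03) were the lowest.

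Transcription factors of the erythroid and megakaryocytic lineages were above all controls in 20 of 34 cases (58.8%, against 22.5% of all genes), with a median of 7.22. With the mean of all probe sets 12 were, against 2438 of all 18239 genes. MYB, which keeps progenitors cycling, was highest at 9.71, 9.37 and 9.58. GATA2 followed at 8.80, 9.22 and 8.34, then TRIM28, a corepressor (8.48 ± 0.21), and LYL1 (8.41, 8.77 and 8.00). GATA1 read 8.16, 8.53 and 7.96, TAL1 8.08, 7.90 and 8.55, LMO2 8.17, 8.69 and 7.59, and KLF1 7.83, 8.15 and 7.89. These 4 partners were above every control on every array. NFE2 (8.02 ± 0.16) and GFI1B (7.08 ± 0.28) were as well, and ZFPM1, the GATA1 cofactor, was between the highest controls (5.25 ± 0.16).

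Among factors of other stages, RUNX1 was near the highest control (6.81, 6.10 and 6.98). BCL11A, which silences gamma-globin in adult cells, read 3.42 ± 0.10, below the second-highest control. LIN28B, an RNA-binding protein of foetal cells, read 8.25 ± 0.13. FLI1, a factor of megakaryocytes, was lowest in the list at 2.28 ± 0.03, and GFI1 was next at 3.31 ± 0.10. SPI1 and CEBPA, the factors of granulocytes and monocytes, read 2.78 ± 0.11 and 3.14 ± 0.17.

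**Figure D3:**
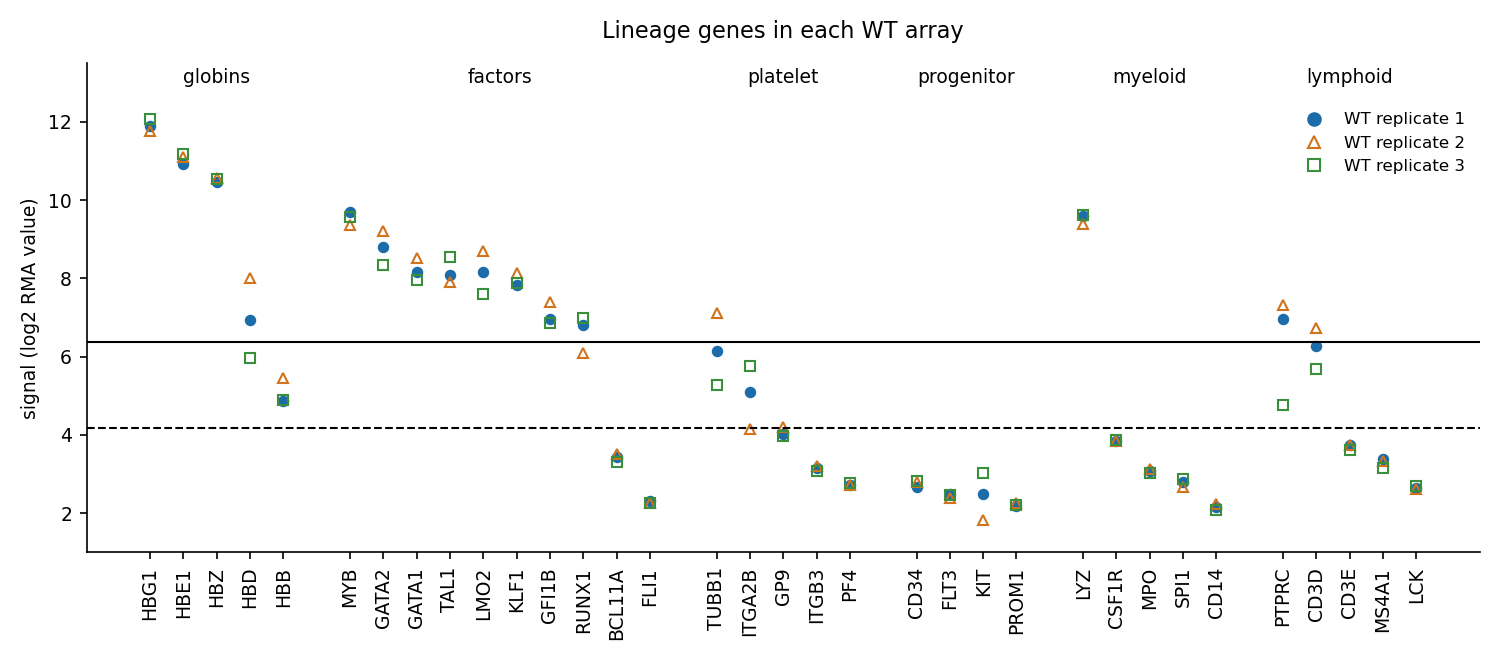
Log2 signal (y axis) of lineage genes (x axis) in each of the 3 WT arrays, with the mean highest (solid) and second-highest (dashed) control. HBG1, HBE1, HBZ and the factors from MYB to GFI1B lie above the solid line on every array, and all of CD34, FLT3, KIT and PROM1 lie below the dashed line.

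Platelet genes were mostly dim. Of 40 measured, 3 were above all controls (7.50%, under the 22.5% of all genes): CAVIN2 (8.73, 9.74 and 7.46), the growth factor ANGPT1 (8.34 ± 0.47) and ARHGAP6 (8.15 ± 0.06). With the mean of all probe sets 1 was, against 2438 of all 18239 genes. ITGA2B, the alpha chain of the fibrinogen receptor, read 5.09, 4.16 and 5.76, while its partner ITGB3 read 3.15 ± 0.06. TUBB1, the platelet tubulin, read 6.14, 7.12 and 5.28. GP9 (4.07 ± 0.12), VWF (4.15 ± 0.08) and GP1BB (2.96 ± 0.02) were below the second-highest control on average, as were the granule genes PF4 (2.74 ± 0.03) and PPBP (2.05 ± 0.25) and the adhesion gene SELP (2.23 ± 0.04).

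Of progenitor genes 4 of 22 were above all controls (18.2%, near the 22.5% of all genes). With the mean of all probe sets 2 were, against 2438 of all 18239 genes. The surface markers among them read low. CD34 read 2.66, 2.78 and 2.83, FLT3 2.45 ± 0.05 and PROM1 2.22 ± 0.05. KIT, the stem cell factor receptor, read 2.49, 1.82 and 3.03. The members above all controls were NPM1, HOXB2 (8.44 ± 0.35), HOXB3 (6.99 ± 0.15) and HOXB4 (6.91 ± 0.21), and NPM1 is also a general nucleolar gene. MECOM (5.27 ± 0.36) was between the highest controls and ERG (3.77 ± 0.02) below the second-highest.

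Markers of other cells stayed near background, with exceptions. Granulocyte and monocyte genes were above all controls in 2 of 37 cases (5.41%, against 22.5% of all genes). These were the lysozyme LYZ (9.59, 9.40 and 9.61) and CEBPB (8.61 ± 0.07). MPO (3.09 ± 0.05), ELANE (2.58 ± 0.03), CTSG (2.39 ± 0.06), CD14 (2.15 ± 0.09), ITGAM (3.67 ± 0.06), CSF1R (3.85 ± 0.02) and CSF3R (3.90 ± 0.07) were all below the second-highest control on average. The lymphoid list had 0 of 37 above all controls, and 8 above the second-highest (21.6%, against 49.1% of all genes). Its brightest member, PTPRC, the common leukocyte antigen CD45, differed between arrays (6.97, 7.32 and 4.77), and so did CD3D (6.26, 6.73 and 5.69). PAX5 was even at 6.31 ± 0.05 by the brightest of its 10 probe sets, the dimmest of which averaged 2.55. The dimmest probe sets of PTPRC and CD3D averaged 2.02 and 2.90. CD3E (3.70 ± 0.08), MS4A1 (3.29 ± 0.13), CD79A (3.25 ± 0.04), NKG7 (4.14 ± 0.06) and LCK (2.65 ± 0.04) were low. Without replicate 3, 2 lymphoid genes were above all controls, against 4448 of all 18239 genes.

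Fibroblast, epithelial and endothelial genes had 4 of 31 above all controls (12.9%, against 22.5% of all genes). Those 4 are epithelial: the keratins KRT18 (9.10, 8.93 and 9.39), KRT8 (7.70 ± 0.17) and KRT19 (7.69 ± 0.27) and the adhesion molecule EPCAM (8.47, 8.22 and 8.70). COL1A1 (2.96 ± 0.12), COL3A1 (2.39 ± 0.09), PECAM1 (3.79 ± 0.13), CDH5 (3.05 ± 0.01), KRT5 (3.56 ± 0.11) and LUM, the lowest signal of all genes (1.58 ± 0.01), were near background. Of 48 keratins, 4 were above all controls (8.33%), those 3 and KRT10 (7.90 ± 0.68). Genes of other organs had 1 of 47 above all controls (2.13%), KRT10. ALB (2.38 ± 0.04), GFAP (4.03 ± 0.08) and MYH6 (3.15 ± 0.04) were low, whereas the cardiac troponin TNNI3 read 7.32, 6.41 and 8.48.

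**Figure D4:**
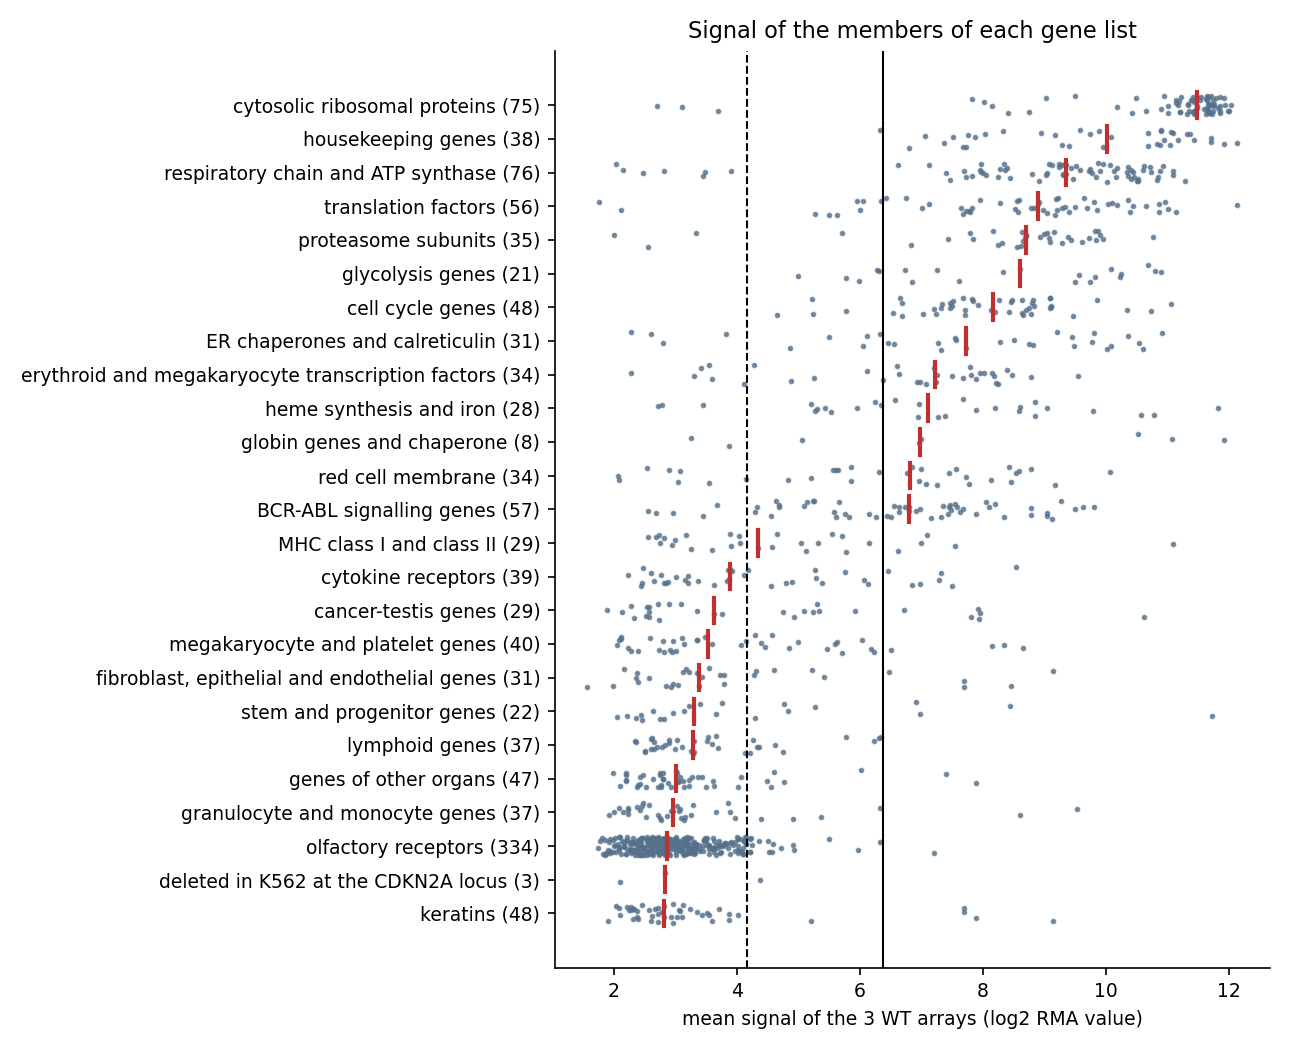
Mean log2 signal of the 3 WT arrays (x axis) for each measured member (points) of each list (y axis, number measured in brackets), with the list median in red and the mean highest (solid) and second-highest (dashed) control. Ribosomal, housekeeping and energy genes lie furthest right, erythroid and signalling lists in between, and lists of other cell types on the left.

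The oncogene pathway of K562 was read next. ABL1 was at 9.23, 9.33 and 9.23 by its brightest probe set and at 6.91, 6.63 and 3.32 on average by its other 3. BCR was at 4.33, 4.27 and 4.32, and its 9 probe sets lay between 2.56 and 4.31. Where these probes lie relative to the fusion point is not known here, so neither gene's signal measures the fusion. Above all controls were 31 of 57 pathway genes (54.4%, against 22.5% of all genes), and 14 with the mean of all probe sets (against 2438 of all 18239 genes). The adaptors CRKL (9.04 ± 0.28), GRB2 (8.34 ± 0.25) and GAB2 (7.15 ± 0.21), which carry the signal to RAS and PI3K, were among them.

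Members of the list were read singly as well. SOCS2, a feedback inhibitor of cytokine signalling, read 9.93, 9.75 and 9.76, and the kinase PIM1 9.74, 8.85 and 9.91. The oncogene MYC was at 9.59, 9.92 and 9.35, and the survival gene BCL2L1 at 7.41, 7.51 and 7.12. STAT5B read 8.11 ± 0.31, and STAT5A 7.13, 7.44 and 6.39, the last just below the highest control. JAK2, a kinase of cytokine receptors, was between the highest controls (5.15 ± 0.28). DUSP6, a phosphatase induced by ERK, was lowest of the list (2.55 ± 0.05), with the adaptor DOK2 next (2.69 ± 0.09).

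Of cytokine receptors 6 of 39 were above all controls (15.4%, against 22.5% of all genes), and 2 with the mean of all probe sets (against 2438 of all 18239 genes). The 6 were led by TGFBR1 (8.55 ± 0.34), IFNAR1 (7.50 ± 0.10) and LEPR (7.32 ± 0.26). EPOR, the erythropoietin receptor, read 3.86, 3.59 and 4.34, CSF2RB 4.90 ± 0.36, IL3RA 2.65 ± 0.13 and CSF2RA 2.23 ± 0.02. NGFR, the selection marker, read 3.34, 3.33 and 3.43, below the second-highest control although the cells were selected for it. Whether its probes lie in the transduced sequence is not known here.

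CDKN2A, CDKN2B and MTAP lie in a region known to be deleted in K562. CDKN2A, a cell cycle inhibitor, read 2.77, 2.85 and 2.90, and CDKN2B 2.05, 2.13 and 2.13, both under the second-highest control. MTAP, a methionine salvage enzyme, read 4.33, 4.38 and 4.42 by its brightest probe set, and its other 5 lay between 1.71 and 2.45. In the order of the chromosome, KLHL9 (2.24), DMRTA1 (1.85), ELAVL2 (2.01) and TUSC1 (2.68) on either side were low too. The next genes outward, CAAP1 (6.53), PLAA (5.38) and IFT74 (5.48), were above the second-highest control on every array. The neighbours were chosen after the values of the 3 genes were seen, and arrays of RNA do not measure a deletion.

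Cancer-testis genes, normally confined to germ cells, were uneven. Of 29 measured, 6 were above all controls (20.7%), a share close to the 22.5% of all genes. These were PRAME (10.60, 10.70 and 10.58, rank 150), MAGEA12 (7.96 ± 0.27), MAGEC2 (7.93 ± 0.59), MAGEC1 (7.92), MAGEB2 (7.80) and CTAG2 (6.72). MAGEA4 (2.90 ± 0.09), GAGE1 (2.58 ± 0.04), BRDT (2.14 ± 0.02) and SSX5 (1.89 ± 0.04) were low. SSX1 was at 5.34 ± 0.46, and MAGEA1 read 2.66, 1.46 and 3.49. GAGE1 is the member of a family of near-identical genes, and most of that family was not analysed here.

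Housekeeping genes covered nearly the whole upper scale. Above all controls were 37 of 38 (97.4%, against 22.5% of all genes), with a median of 10.02. ACTB (11.31 ± 0.11), B2M (11.09 ± 0.10), PPIA (11.04 ± 0.07), GAPDH (10.69 ± 0.16) and HPRT1 (9.57 ± 0.04) were high, and TBP (7.75 ± 0.24), GUSB (7.51 ± 0.17) and IPO8 (6.80 ± 0.12) lower. POLR2A, the large subunit of RNA polymerase II, read 6.42, 6.10 and 6.49, below the highest control in replicate 2. Proteasome subunits were above all controls in 31 of 35 cases (88.6%; PSMB1 10.77 ± 0.04, PSMB2 9.96 ± 0.09, PSMD14 9.90 ± 0.32). PSMB8, the immune form of a catalytic subunit, read 2.55 ± 0.16, and PSMA8, the testis form, 2.01 ± 0.02. The respiratory chain and ATP synthase had 68 of 76 above (89.5%; COX6A1 11.28 ± 0.13, ATP5MC3 11.10 ± 0.05, COX7C 11.09 ± 0.10), and the tissue forms COX7A1 (2.15 ± 0.01) and COX8C (2.04 ± 0.08) were at background.

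Glycolysis and cell cycle genes were also high. In glycolysis 14 of 21 genes were above all controls (66.7%, against 22.5% of all genes). They were led by LDHA (10.90, 11.32 and 10.46), LDHB (10.79 ± 0.16) and GAPDH, with ENO1 at 10.25 ± 0.12, ALDOA at 10.08 ± 0.39 and PKM at 7.61 ± 0.09. ENO2 (5.78 ± 0.30) and PFKL were lowest. Of 48 cell cycle genes 41 were above (85.4%) and 48 above the second-highest control. STMN1, which destabilises microtubules (11.06 ± 0.21), TYMS, which makes thymidylate (10.73 ± 0.38), and PCNA, the sliding clamp of replication (10.34 ± 0.42), led, and FOXM1 (5.23 ± 0.21) and UBE2C (4.66 ± 0.08) were lowest.

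In the list of ER chaperones and calreticulin, which also holds ATF4, 20 of 31 genes were above all controls (64.5%, against 22.5% of all genes). The list median was 7.73. HSP90B1, the ER form of HSP90, led at 10.82, 10.93 and 10.99, followed by ATF4, a stress-response factor (10.60 ± 0.11), and CANX, the membrane-bound relative of calreticulin (10.54 ± 0.08). P4HB (10.09 ± 0.14), HSPA5, the chaperone BiP (9.85, 10.01 and 10.17), and PDIA3, the disulfide isomerase partner of calreticulin (8.75 ± 0.18), were above all controls. CALR itself read 7.29, 7.67 and 7.73 and ranked 2484, and its other probe set read 3.90, 4.01 and 3.68. Which of these probes the transduced copy would reach is not known here. The testis relatives CLGN (2.61 ± 0.28) and CALR3 (2.28 ± 0.06) were low.

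In antigen presentation 4 of 29 genes were above all controls (13.8%, against 22.5% of all genes), and 1 with the mean of all probe sets (against 2438 of all 18239 genes). The 4 were B2M, TAPBP (7.54 ± 0.18), HLA-E (7.10 ± 0.08) and MICB (6.99 ± 0.05). HLA-C read 5.82, 6.39 and 5.11 and HLA-B 4.04 ± 0.08. The class II gene HLA-DRA (2.81 ± 0.06), the class II activator CIITA (4.06 ± 0.07), the class I activator NLRC5 (2.74 ± 0.04) and HLA-DMA (2.69 ± 0.22) were below the second-highest control.

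The 3 arrays agreed closely for most genes and differed widely for some. The SD had a median of 0.11 over all genes and 0.18 over genes above all controls. Over the 10 groups of the ranking the median SD was 0.05 in the lowest, 0.22 in group 8 and 0.17 in the highest. The range over the 3 arrays exceeded 1 for 1113 genes (6.10%). In 1083 of these replicate 1 lay between replicates 2 and 3, against 10352 of all 18239 genes (56.8%). Replicate 3 was highest for 602 of the 1113, replicate 2 for 481 and replicate 1 for 30.

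The genes with the widest range were these. SRGN, the granule proteoglycan serglycin, read 4.47, 1.72 and 6.73, and COL15A1, a basement membrane collagen, 7.26, 9.35 and 4.81. HEPACAM2 (5.61, 3.73 and 7.93), the acrosin-binding protein ACRBP (6.03, 3.96 and 7.94) and the secreted glycoprotein RELN (5.37, 3.73 and 7.66) followed SRGN, with replicate 3 high and replicate 2 low. So did ANXA3, an annexin (7.79, 5.87 and 9.77), CTH, an enzyme of cysteine synthesis (8.09, 5.43 and 9.27), PPIC (6.49, 4.75 and 8.34) and EPAS1, a hypoxia-inducible factor (6.97, 5.17 and 8.46). The chemokine CXCL8 (5.58, 7.63 and 3.83) went with COL15A1, high in replicate 2.

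For all 10 genes every one of the 6 other arrays was between the lowest and the highest WT array, as it was for 973 of the 1113 genes (87.4%), against 20.0% of all genes. A gene with a wide WT range leaves more room for this. Within the other groups the arrays also followed an order. For SRGN, Del52 replicates 1 to 3 read 4.34, 5.53 and 3.12 and Ins5 replicates 1 to 3 read 4.13, 5.69 and 3.09, so replicate 2 was high and replicate 3 low there, opposite to WT. In each of Del52 and Ins5, 1112 of the 1113 genes had replicates 2 and 3 in the order opposite to WT.

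**Figure D5:**
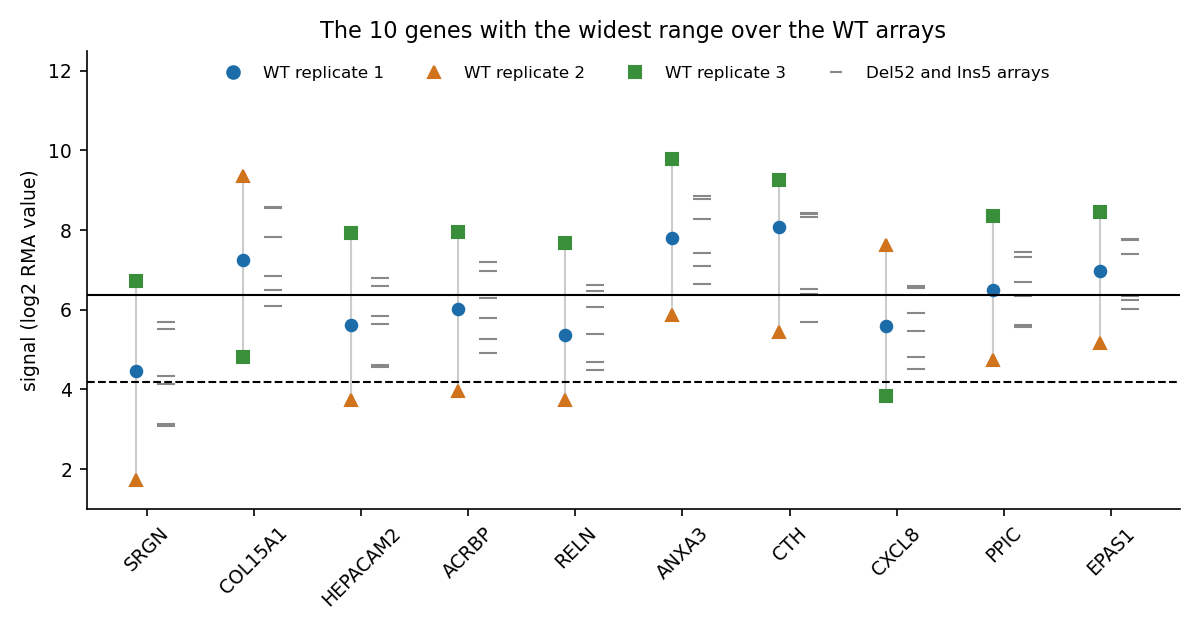
Log2 signal (y axis) of the 10 genes with the widest range over the WT arrays (x axis): coloured symbols are the 3 WT arrays, grey dashes the 6 Del52 and Ins5 arrays, and lines the mean highest (solid) and second-highest (dashed) control. Replicate 1 lies between replicates 2 and 3 in all 10 genes, and the grey dashes lie inside the WT range.

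Glycolysis genes deviated from their WT mean by a median of -0.03, 0.15 and -0.16, and 18 of 21 were higher in replicate 2 than in replicate 3 (85.7%, against 55.7% of all genes). Cell cycle genes deviated by 0.01, -0.11 and 0.11, with 17 of 48 higher in replicate 2 (35.4%). Erythroid and megakaryocytic factors deviated by 0.02, 0.11 and -0.09, with 21 of 34 higher in replicate 2 (61.8%). Among cell cycle genes members went both ways: RRM2, which makes deoxynucleotides, read 8.77, 7.85 and 9.63, while CCNB1, the mitotic cyclin, read 8.07, 9.04 and 7.30. TOP2A (9.09 ± 0.19) and MKI67 (7.24 ± 0.24) moved less, and CDK1 read 9.52, 9.02 and 9.86. Red cell membrane genes had 8 of 34 members with a range over 1, against 6.10% of all genes. Of these 8, 7 were highest in replicate 3, whereas over all genes 602 of 1113 were. Among them were RHD (6.12, 5.31 and 7.50) and ERMAP (5.64, 4.33 and 6.95). The exception was STOM (7.81, 8.62 and 6.90). Of 10 such platelet genes 5 were highest in replicate 2 and 5 in replicate 3. With 3 arrays of 1 group there is no contrast to test, so these differences between arrays stand without one.

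The ranking of WT genes resembled that of the other groups. Spearman's rho over genes, a description with shared probes, was 0.998 between the WT means and the means of both Del52 and Ins5. Of the first 100 WT genes, 97 were among the first 100 in Del52 and 96 in Ins5. Genes above all controls numbered 4574 in Del52, and the 4083 shared were 99.4% of the WT genes and 89.3% of the Del52 genes. In Ins5 there were 4392, and the 4026 shared were 98.0% of the WT and 91.7% of the Ins5 genes. In WT the count was 4635 without replicate 2, 4448 without replicate 3 and 4109 without replicate 1. The call is easier to meet on fewer arrays, so these WT counts do not compare with those of Del52 and Ins5.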

How the data were processed

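Expression was measured on Affymetrix arrays, and 3 arrays of the WT group were described out of 9. The authors deposited 1 log2 value per probe set and array. The submitters' processing notes list Partek and RMA without a version. RMA subtracts background, equalises the arrays' distributions and combines the probes of a set; no setting of it is known here. The log base was read from the values, whose maximum was 12.2. RMA pulls arrays to 1 distribution, so levels are relative.

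Of 49386 probe sets 93 were controls. Of the rest, 45253 had 1 symbol in the platform annotation, 1327 several and 2713 none, and only the first kind was used. By gene identifier, 45172 matched RefSeq. Each gene was read from its brightest probe set over the 9 arrays, and 11822 genes had more than 1. A gene was above all controls if it exceeded the highest of 23 antigenomic controls on each WT array. No test was made, since the description holds 1 group. Arrays give no read depth, and their number limits the precision.

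The members and the 25 gene lists (1208 distinct measured genes) were chosen with earlier results of these data known. Named genes were CALR and NGFR, the first 30, key members of lists, the 3 highest and 2 lowest of a list, the 3 nearest the threshold on each side and the 10 widest. Others were chosen after their values were seen. Some list entries are not reported here. Families such as translation factors were taken by symbol pattern, which misses EEF2 (11.16 ± 0.32). Python 3.11.15, numpy 2.4.6 and pandas 2.3.3 were used, and the call was tested on simulated data.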

Additional observations from a re-analysis of the deposited data

Results flagged for a closer look

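Signal above all antigenomic controls on each WT array was also present in probe sets that entered no list or ranking. It was present in 433 of 2713 probe sets without a gene symbol here (16.0%) and in 265 of 1327 with several symbols (20.0%). The brightest of those without a symbol read 12.19, 12.19 and 12.21, above every ranked gene. No other result was picked out, since groups of 3 arrays are too small for a test of outlying samples.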

How the results depend on the processing

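The count of genes above all controls depended on the control chosen. It was 8960 with the second-highest control, 8968 with the 95th percentile of olfactory receptor genes and 17748 with the median control, against 4109. Listed genes above were 435, and 1172 with the median control. With the mean of all probe sets per gene, 2438 genes were above and 54 of the first 100 genes were the same. The cause was not tested in any of these. The median SD was 0.1788 over genes above all controls alone. Leaving out 1 array gave 4109 to 4635 genes, 95 to 99 of the first 100 and a median SD of 0.0773 to 0.1123. A gene must pass on every array, so leaving out an array could not lower the count of genes. Quantile normalization and median centring changed none of these by over 1.5 times. Both keep the order of probe sets within an array, so they could not change a call against controls of the same array. The values were also already RMA signals. Of 125 key genes, 79 moved by more than their SD with the mean of all probe sets, as did 1 with another choice of probe set. Lists that shrank by over 1.5 times with the mean of all probe sets were, among others, BCR-ABL signalling (31 to 14 above), erythroid and megakaryocyte factors (20 to 12), heme and iron (17 to 11) and the red cell membrane (16 to 9). The count over all genes also fell, from 4109 to 2438, so such a fall was not particular to these lists. No paired analysis was possible because the results come from no test and from 1 group.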

Other observations

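Further genes of the first 100 lay outside the lists and were chosen after their values were seen. PABPC1, which binds the poly(A) tail, read 11.59 ± 0.04 (rank 39), HNRNPA1, a splicing regulator, 11.35 ± 0.18 (rank 59), and the chloride channel protein CLIC1 11.41 ± 0.16 (rank 51). The histone gene H4C3 read 11.45, 11.11 and 11.64. HSPA8, the constitutive cytosolic HSP70, read 11.43, 12.06 and 10.79, a wider spread than its neighbours in rank.

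DCAF6, a substrate receptor of a ubiquitin ligase, ranked second by 1 probe set that read 12.08 on average, while its other 5 lay between 6.30 and 8.07. Over the 11822 genes with more than 1 probe set, the highest and the lowest differed by a median of 1.25. PKM had probe sets from 2.08 to 7.61.

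Stress and immune genes outside the 10 widest also differed between arrays. JUN read 7.17, 5.41 and 8.68, ATF3 8.08, 5.74 and 8.96, and ULBP1 6.98, 4.85 and 7.66, all lowest in replicate 2. BST2 read 8.24, 9.45 and 6.52 and EGR1 7.98, 9.53 and 7.09, both highest there. These genes were chosen after their values were seen.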
